A study of Mus musculus with 12 samples.

Results

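The genes described are 38 synaptic vesicle and transmitter release genes of the mouse auditory nerve, taken as the genes whose symbol on the array is exactly one of 38 named symbols, out of 18193 genes with a symbol of their own. All 38 had at least 1 probe set, and where a gene had several, the one with the highest mean over the 12 arrays stood for it. The arrays form 4 groups of 3, namely ouabain-treated and control ears at 3 days, and ouabain-treated and control ears at 7 days. The animals were CBA/CaJ mice of both sexes, aged 8 to 12 weeks, and no transgene or mutant allele was named for any group. The right ear received 3 mM ouabain, which blocks the sodium-potassium pump, in about 10 µl at the round window niche, renewed about every 10 min for 60 min, and the unoperated left ear served as the control. Ouabain given in this way is used as a model of the selective loss of type I spiral ganglion neurons, and treated mice with only a small hearing threshold shift had been left out by the study. The tissue was the modiolus, the bony core of the cochlea with the spiral ganglion and the nerve inside it, freed of the lateral wall and of most of the sensory epithelium. Each array carried RNA pooled from a pair of such preparations, and the animals in each pool were not named.

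Transmitter leaves a nerve terminal when a vesicle membrane fuses with the cell membrane. SNARE proteins on both membranes pull them together, synaptotagmins sense the calcium that sets fusion off, complexins hold and time the SNARE complex, active zone proteins place and prime vesicles, and dynamin, amphiphysin, synaptojanin and endophilin retrieve the membrane afterwards. Spiral ganglion neurons are glutamatergic cells whose cell bodies lie in the modiolus and whose central terminals, which make large fast synapses, lie in the cochlear nucleus of the brain stem. The mRNAs of release proteins are made in the cell bodies, so the modiolus holds the transcripts while most of the presynaptic terminals lie outside the tissue.

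All values are log2 expression values from RMA, a method that corrects background, equalizes the arrays' distributions and summarizes the probes of each probe set. A gene was called when its adjusted p in limma, over all 45037 probe sets, was under 0.05 and its fold change was above 1.5. The array medians lay between 6.01 and 6.09, and the lower quartiles between 4.26 and 4.38. Each mouse had 1 treated and 1 control ear, so the pools of a group would hold different mice where each ear was used once, while treated and control pools may share mice. The p-values reflect how much these pools varied, and the 3 arrays of a group limit the precision. In whole tissue of this kind, fewer cells of a type and less RNA in each cell cannot be told apart. Replicate 1 of the ouabain-treated ears stood nearest to the controls at both days, with a neuronal marker median of -1.37 at 3 days against -2.69 and -2.81 in the other two arrays, and of -2.42 at 7 days against -3.76 and -3.80. The erythroid markers Alas2 and Slc4a1 were highest in replicate 1 of all 4 groups, and reached 9.36 and 11.45 in the 7-day controls. The median of that control array over the 38 genes lay 0.18 above the control mean of that day. Hba-a1, the other erythroid marker measured, lay below the arrays' lower quartile (mean 3.84) and was highest in replicate 1 only in the 7-day controls. The summed linear level of the erythroid markers in replicate 1 of the controls was 511 at 3 days, against 157 and 162. At 7 days it was 3478, against 480 and 427. In ouabain-treated ears it was 431 at 3 days, against 135 and 125, and 1070 at 7 days, against 375 and 549. Any bearing of this on the release genes was not tested.

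Promoters are shown for 4 of the genes, because most of the genes were lower together and their upstream sequence can be set beside their responses. Each is the 250 bases before the RefSeq start site in the build GRCm38.p6, read in the direction of the gene, with the matches to 4 short motifs in capitals, on either strand. Syt2 (chr1:134646362-134646611, plus strand) and Vamp1 (chr6:125215331-125215580, plus strand) had the largest decreases at 3 days, Syn1 (chrX:20920919-20921168, minus strand) held the rarest of the motifs, and Rab3b (chr4:108878820-108879069, plus strand) was called at neither day.
Syt2: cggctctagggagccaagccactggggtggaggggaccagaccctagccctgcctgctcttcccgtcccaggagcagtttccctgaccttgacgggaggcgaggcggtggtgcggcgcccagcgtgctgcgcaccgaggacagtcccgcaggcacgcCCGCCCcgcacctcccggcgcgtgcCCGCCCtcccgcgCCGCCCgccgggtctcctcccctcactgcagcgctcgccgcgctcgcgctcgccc
Vamp1: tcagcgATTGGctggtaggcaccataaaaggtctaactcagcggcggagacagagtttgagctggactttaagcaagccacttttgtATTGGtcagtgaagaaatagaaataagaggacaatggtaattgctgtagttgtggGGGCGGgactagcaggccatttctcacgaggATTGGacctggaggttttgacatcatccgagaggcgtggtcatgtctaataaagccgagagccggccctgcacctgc
Syn1: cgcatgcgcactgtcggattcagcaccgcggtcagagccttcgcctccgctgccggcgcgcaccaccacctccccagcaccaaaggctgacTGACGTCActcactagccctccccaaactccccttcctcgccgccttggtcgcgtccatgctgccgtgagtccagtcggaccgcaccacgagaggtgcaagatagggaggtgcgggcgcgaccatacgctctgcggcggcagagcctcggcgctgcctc
Rab3b: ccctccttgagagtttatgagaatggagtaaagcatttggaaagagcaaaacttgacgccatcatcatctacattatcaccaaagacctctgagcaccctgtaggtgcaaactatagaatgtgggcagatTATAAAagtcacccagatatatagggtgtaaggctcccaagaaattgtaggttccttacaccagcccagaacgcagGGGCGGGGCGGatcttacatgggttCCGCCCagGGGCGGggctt

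Of the 38 genes, 32 had a promoter in the RefSeq table, and Syt7, Syt4, Rims2, Syngr3, Vamp2 and Snap25 are named only. A gene was counted for a motif when the window of any of its start sites in the table held a match. The GC box GGGCGG, a binding motif of Sp1-type factors, stood in 23 of the 32 genes (71.9%), against 35.4% of all 27025 genes in the table. It was present in 18 of 25 genes lower at both days and in 5 of the 7 others, and Rab3b, called at neither day, carried it several times, with 2 of its copies overlapping. The CCAAT box (CCAAT) stood in 8 of the 32 (25%, against 37.5% of all genes) and TATAAA in 2 of the 32 (6.25%, against 14.3%), these being Sv2b and Rab3b. The palindromic cyclic AMP response element TGACGTCA was found in Syn1 and Sh3gl2, against 1.77% of all genes. For Syt2 the first of its 2 start sites in the table is shown. That window holds no CCAAT match, and Syt2 is counted for this motif through its other start site. These matches describe letters in a window and were not tested against the responses.

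At 3 days after ouabain, 29 of the 38 genes were lower than in control ears, 1 was higher and 8 were not called. At 7 days 31 were lower, none was higher and 7 were not called, and all 29 genes lower at 3 days were lower at 7 days as well. The count at 3 days depended on the test. With the unadjusted p of the study's methods, its unpaired test called 29 genes lower at 3 days and 31 at 7 days. The unequal-variance form called 25 and 31. With adjusted p, the unpaired test called 18 and 30, and the unequal-variance form 2 and 11. The unpaired test then left out Napb, Cplx1, Sv2a, Sv2b, Slc17a6, Syn2, Rab3c, Pclo, Dnm1 and Snap91 at 3 days and Snap25 at both days. Over all genes, 8.06% were called lower at 3 days and 8.2% at 7 days (over all probe sets 6.58% and 6.51%), 7.51% and 7.57% were called higher (over all probe sets 5.71% and 6.14%), and 6.4% were lower at both days. The median log2 fold change of the 38 genes was -1.90 at 3 days and -2.23 at 7 days, while the median over all genes was 0.01 and 0.03. For 31 genes at each day every ouabain-treated array lay below every control array, against 21.2% and 20.6% of all genes, and for 3 genes at 3 days (Syt4, Cplx2 and Sncg) and none at 7 days every treated array lay above, against 22.4% and 25.6%. The fitted changes ranged between -3.44 for Syt2 and 1.54 for Syt4 at 3 days, and between -4.43 for Syt2 and 0.37 for Stx1a at 7 days.

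**Figure D1:**
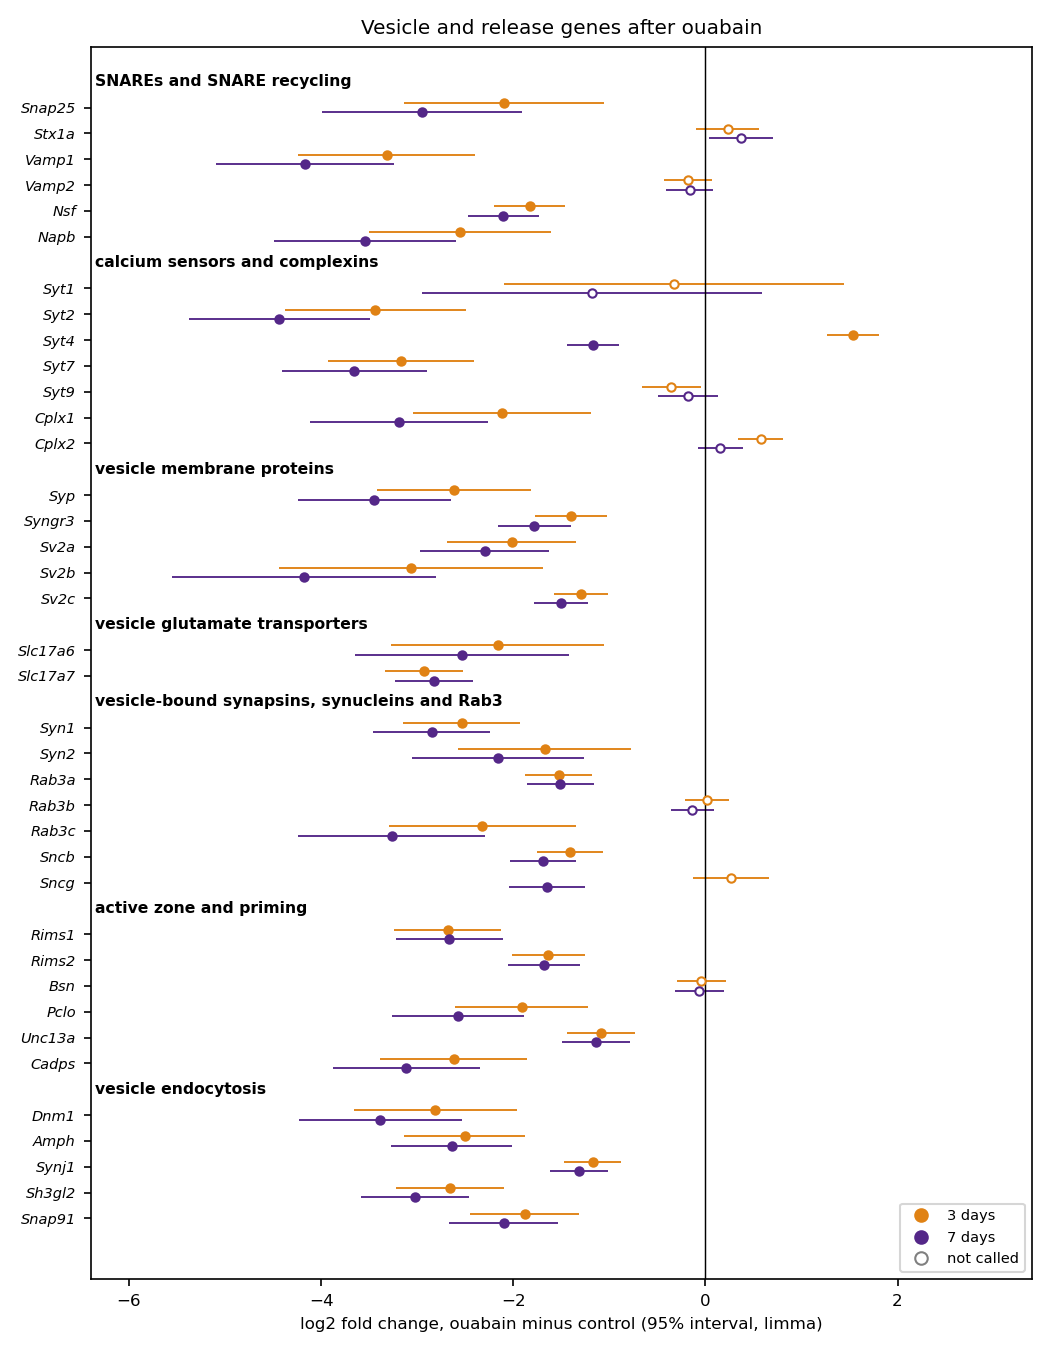
Log2 fold change (ouabain minus control, x axis) of the 38 genes, in 7 groups by role, at 3 days (orange) and 7 days (purple), with 95% intervals from limma (n = 3 arrays per group) and open points for genes that were not called. Most genes lie between -1 and -4.5 at both days, Syt4 stands at 1.54 at 3 days and -1.17 at 7 days, and Stx1a, Vamp2, Syt9, Cplx2, Rab3b and Bsn lie near 0.

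Among the 6 SNAREs and proteins that recycle them, 4 were lower at both days (Snap25, Vamp1, Nsf and Napb), and Stx1a and Vamp2 were called at neither. Vamp1 encodes synaptobrevin 1, the vesicle SNARE that is common in brain stem and spinal cord synapses. Its log2 values were 9.28, 7.86 and 7.64 in ouabain-treated ears at 3 days, against 11.50, 11.42 and 11.81 in controls. At 7 days they were 8.22, 7.01 and 6.64 after ouabain, against 11.59, 11.52 and 11.26 in controls. The groups did not overlap at either day, and the level after ouabain was 5.56% of the control level at 7 days (log2 fold change -3.32 at 3 days and -4.17 at 7 days, SE 0.42, limma adjusted p = 0.000111 and 2.08e-05).

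Vamp2 encodes synaptobrevin 2, the related vesicle SNARE that is common in the forebrain. It stood at 9.48, 9.31 and 9.25 after ouabain at 3 days, against 9.51, 9.55 and 9.53 in controls. The 7-day values were 9.51, 9.52 and 9.43, against 9.88, 9.39 and 9.67. Its values on the 12 arrays spanned 0.63, and the change was -0.18 at 3 days (95% interval -0.43 to 0.06) and -0.16 at 7 days (-0.41 to 0.08). A second, dimmer probe set of Vamp2 was not called either, at 0.21 and 0.13.

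Snap25, the SNARE of the cell membrane, was at 12.16, 10.54 and 10.96 after ouabain at 3 days, against 13.28, 13.33 and 13.35 in controls. Snap25 at 7 days was at 11.57, 10.07 and 9.33, against 13.34, 13.21 and 13.27. The 6 controls spanned 0.14 while the treated arrays spanned 1.62 at 3 days and 2.23 at 7 days, and replicate 1 was the highest treated array both times. The change was -2.10 at 3 days and -2.95 at 7 days (SE 0.48, limma adjusted p = 0.00646 and 0.000698), and -3.57 at 7 days without ouabain replicate 1. Napb, the neuronal form of the cofactor that brings the ATPase NSF to used SNARE complexes, was at 8.86, 7.73 and 7.34 at 7 days after ouabain, against 11.85, 11.41 and 11.30 in controls. At 3 days Napb was at 10.20, 8.40 and 8.70, against 11.73, 11.58 and 11.66, again without overlap (-2.56 at 3 days and -3.54 at 7 days, SE 0.43, limma adjusted p = 0.000903 and 8.4e-05). Nsf itself was lower by less, at -1.83 and -2.10 (SE 0.17). Stx1a, the syntaxin that pairs with Snap25, had changes of 0.23 and 0.37 (SE 0.15, limma adjusted p = 0.345 and 0.0974). Its probe set is of a kind that shares some probes with other transcripts, and its other probe set was at 0.00 and 0.01.

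The 7 calcium sensors and complexins were the least uniform group. At 3 days 3 were lower (Syt2, Syt7 and Cplx1), 1 was higher (Syt4) and 3 were not called, and at 7 days Syt4 had joined the lower ones. Syt2, the fast calcium sensor of many hindbrain synapses, had the largest decrease of the 38 genes at both days. Its values were 8.55, 7.13 and 6.89 after ouabain at 3 days, against 10.81, 11.03 and 11.03 in controls. At 7 days they were 7.36, 5.65 and 6.18, against 11.02, 10.85 and 10.62. The highest treated array was 2.26 below the lowest control at 3 days and 3.26 below it at 7 days, and the level was 9.24% of control at 3 days and 4.63% at 7 days (-3.44 and -4.43, SE 0.43, limma adjusted p = 0.000101 and 1.57e-05). Syt7, a slow, high-affinity calcium sensor, was at 9.04, 7.96 and 8.07 after ouabain at 3 days, against 11.46, 11.27 and 11.86 in controls. Syt7 at 7 days was at 8.48, 7.58 and 6.99, against 11.52, 11.26 and 11.24. It too was without overlap at both days (-3.17 and -3.65, SE 0.35, limma adjusted p = 3.65e-05 and 1.28e-05).

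Syt4, a synaptotagmin that binds calcium poorly and whose transcript is known to be inducible by activity, moved in opposite directions at the 2 days. Its values were 11.71, 11.85 and 12.06 after ouabain at 3 days, against 10.24, 10.37 and 10.40 in controls. At 7 days they were 9.52, 9.12 and 9.24, against 10.58, 10.30 and 10.50. The treated arrays lay above all controls at 3 days and below all controls at 7 days, and the controls of the 2 days overlapped. The change was 1.54 at 3 days, to 291% of control, and -1.17 at 7 days, to 44.6% of control (SE 0.12, limma adjusted p = 4.15e-06 and 2.91e-05), and the 2 responses differed by -2.71 (SE 0.18, limma adjusted p = 2.96e-05). A second probe set of Syt4 gave 1.26 and -1.19 and was called the same way at each day. The genes whose response was more negative at 7 than at 3 days made up 0.923% of all genes, and those less negative 0.247%.

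Syt1, the main fast calcium sensor of the forebrain, was not called at either day. Its values spanned 2.4 and 3.0 in the controls of 3 and 7 days, 2.3 after ouabain at 3 days and only 0.6 after ouabain at 7 days. It stood at 9.54, 7.19 and 8.06 after ouabain at 3 days, against 9.31, 9.44 and 7.01 in controls. The 7-day values were 8.30, 8.43 and 7.84, against 10.67, 7.64 and 9.83. The groups overlapped at both days, and the intervals of the change (-0.32, 95% interval -2.09 to 1.45, at 3 days, and -1.18, -2.95 to 0.59, at 7 days) hold both no change and a large decrease. The change at 3 days was -1.11 without control replicate 3 and -0.96 without ouabain replicate 1, and at 7 days it was -2.05 without control replicate 2 and -0.54 without control replicate 1. Syt9, another fast sensor, had changes of -0.36 and -0.18 (SE 0.14, limma adjusted p = 0.0972 and 0.408).

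Cplx1, the complexin of brain stem and many fast synapses, was at 12.22, 10.87 and 10.92 after ouabain at 3 days, against 13.45, 13.48 and 13.42 in controls. Cplx1 at 7 days was at 11.27, 10.03 and 9.33, against 13.52, 13.39 and 13.28. The 6 controls spanned 0.24, and the treated arrays lay below them throughout (-2.12 and -3.19, SE 0.42, limma adjusted p = 0.0028 and 0.000161). Cplx2, its close relative, was at 8.12, 8.38 and 8.31 after ouabain at 3 days, against 7.81, 7.59 and 7.68 in controls, and at 8.04, 8.25 and 8.06 at 7 days, against 7.89, 7.87 and 8.13. Its treated arrays lay above the controls at 3 days, where the fold change of 1.49 was just under the threshold (0.58, SE 0.11, limma adjusted p = 0.0016), and overlapped them at 7 days. Without ouabain replicate 1 or control replicate 1 at 3 days Cplx2 was called higher, and so was its second probe set on all arrays (1.22, limma adjusted p = 8.27e-05).

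**Figure D2:**
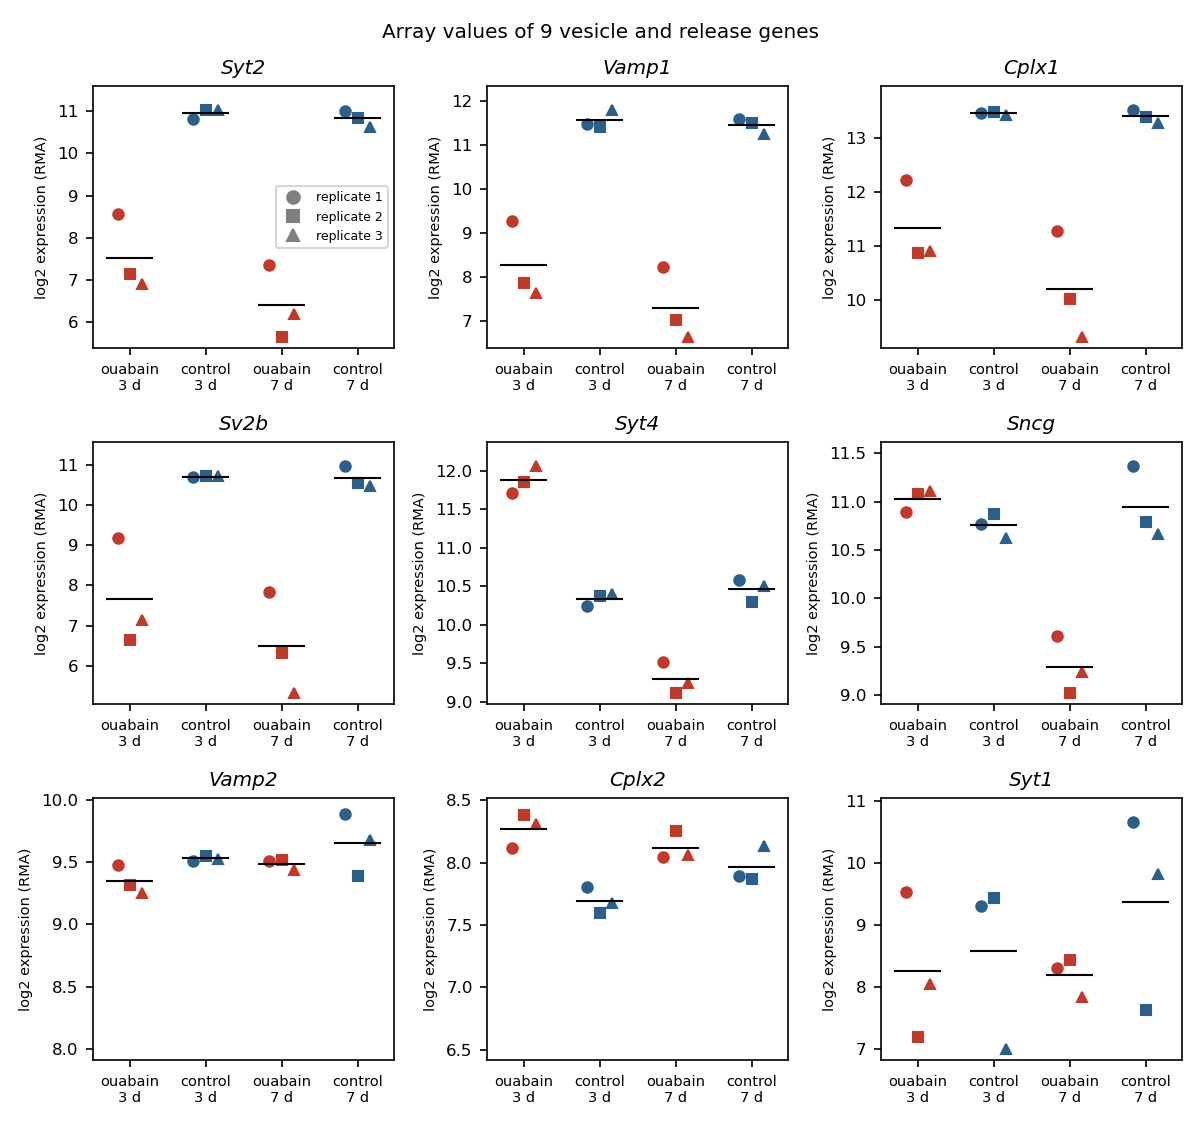
Log2 expression (y axis, RMA) of 9 genes on each of the 12 arrays, with ouabain in red and control in blue at 3 and 7 days (x axis), replicates by symbol and group means as lines. Syt2, Vamp1, Cplx1 and Sv2b lie below every control at both days with ouabain replicate 1 highest, Syt4 lies above the controls at 3 days and below them at 7 days, and the Syt1 controls spread over 2.4 at 3 days and 3.0 at 7 days.

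The 5 vesicle membrane proteins (Syp, Syngr3, Sv2a, Sv2b and Sv2c) were lower at both days, with medians of -2.02 and -2.30. Synaptophysin (Syp), the most common vesicle marker, was at 8.11, 6.55 and 6.76 after ouabain at 3 days, against 9.63, 9.68 and 9.95 in controls. Its 7-day values were 6.97, 6.08 and 5.89, against 10.10, 9.62 and 9.57, or 9.18% of the control level (-2.61 and -3.44, SE 0.37, limma adjusted p = 0.000222 and 2.91e-05). The treated arrays did not reach the controls at either day. Syngr3, a synaptogyrin of the same 4-span family, changed by -1.40 at 3 days and -1.78 at 7 days (SE 0.17).

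The SV2 proteins are vesicle glycoproteins with 12 membrane spans, and the 3 forms were lower by different amounts. Sv2b was at 9.18, 6.63 and 7.14 after ouabain at 3 days, against 10.69, 10.72 and 10.72 in controls. Its 7-day values were 7.84, 6.32 and 5.33, against 10.98, 10.54 and 10.49 (-3.06 and -4.17, SE 0.63, limma adjusted p = 0.00333 and 0.000409). The treated arrays of Sv2b had the widest spread of the 38 genes, and without ouabain replicate 1 its change was -3.82 at 3 days and -4.85 at 7 days. Sv2a was at 9.17, 7.88 and 8.41 after ouabain at 3 days, against 10.42, 10.35 and 10.76, and at 8.60, 7.93 and 7.58 at 7 days, against 10.61, 10.26 and 10.14. Sv2c was at 5.09, 5.05 and 5.23 after ouabain at 3 days, against 6.44, 6.37 and 6.44, and at 4.72, 4.64 and 5.16 at 7 days, against 6.45, 6.40 and 6.17. Neither gene overlapped the controls, and the change was -2.02 and -2.30 for Sv2a (SE 0.31) and -1.29 and -1.5 for Sv2c (SE 0.13). The Sv2c values after ouabain lay between the lower quartile and the median of the arrays.

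Both vesicle glutamate transporters were lower at both days. Slc17a7 encodes VGLUT1 and was at 5.06, 5.0 and 4.55 after ouabain at 3 days, against 7.67, 7.59 and 8.14 in controls. At 7 days it was at 4.73, 4.36 and 4.90, against 7.5, 7.66 and 7.31 (-2.93 and -2.82, SE 0.19, limma adjusted p = 8.16e-07 and 1.06e-06). Its treated values stood close to the arrays' lower quartile at both days. Slc17a6 encodes VGLUT2 and was at 10.38, 7.98 and 8.68 after ouabain at 3 days, against 11.39, 11.34 and 10.79 in controls. At 7 days it was at 9.39, 8.11 and 8.61, against 11.78, 10.95 and 10.97. Ouabain replicate 1 at 3 days came within 0.41 of the lowest control, and the change was -2.16 and -2.53 (SE 0.51, limma adjusted p = 0.00781 and 0.00302), or -2.85 at 3 days without that array.

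Of the 7 genes for proteins on the outside of the vesicle, 5 were lower at 3 days and 6 at 7 days. The synapsins, which tether vesicles in the reserve pool, were lower at both days, Syn1 with changes of -2.54 and -2.85 (SE 0.28) and Syn2 with -1.67 and -2.16 (SE 0.41). Rab3 proteins are small GTPases that bring vesicles to the active zone. Rab3a, the main form in brain, was at 11.38, 10.81 and 10.62 after ouabain at 3 days, against 12.48, 12.46 and 12.44 in controls, and at 11.14, 10.87 and 10.81 at 7 days, against 12.49, 12.44 and 12.41. Rab3c was at 8.60, 6.61 and 6.58 after ouabain at 3 days, against 9.59, 9.76 and 9.40, and at 6.87, 6.42 and 5.86 at 7 days, against 9.98, 9.37 and 9.62. Rab3b was at 5.69, 5.85 and 5.84 after ouabain at 3 days, against 5.72, 5.68 and 5.92, and at 5.74, 5.66 and 5.70 at 7 days, against 5.72, 6.05 and 5.74. Rab3a and Rab3c were without overlap at both days, and Rab3b overlapped at both. The changes were -1.53 and -1.51 for Rab3a (SE 0.16), -2.32 and -3.27 for Rab3c (SE 0.44, and -2.99 at 3 days without ouabain replicate 1), and 0.02 and -0.13 for Rab3b (SE 0.10). The Rab3a probe set is of the kind that shares some probes with other transcripts, and Rab3b lay close to the arrays' medians in all 4 groups.

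The synucleins are small vesicle-binding proteins, and the 2 forms measured here had different time courses. Sncb was at 8.29, 8.35 and 7.89 after ouabain at 3 days, against 9.45, 9.56 and 9.76 in controls, and at 7.99, 8.27 and 7.82 at 7 days, against 9.86, 9.81 and 9.48 (-1.41 and -1.69, SE 0.16). Sncg, the form of peripheral and some large neurons, was at 10.90, 11.08 and 11.11 after ouabain at 3 days, against 10.77, 10.87 and 10.63 in controls. At 7 days Sncg was at 9.61, 9.03 and 9.24, against 11.37, 10.79 and 10.66. Its treated arrays lay just above the controls at 3 days and at least 1.05 below them at 7 days. The change was 0.27 at 3 days (SE 0.18, limma adjusted p = 0.361) and -1.65 at 7 days (limma adjusted p = 3.76e-05), and the responses differed by -1.92 (SE 0.26, limma adjusted p = 0.00498).

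Of the 6 active zone and priming genes, 5 were lower at both days. Rims1, the scaffold that ties Rab3 to calcium channels, changed by -2.68 and -2.66 (SE 0.26), and Rims2 by -1.63 and -1.68 (SE 0.17). Cadps, a priming factor known best for dense-core vesicles, changed by -2.62 and -3.12 (SE 0.35), and the large scaffold Pclo (piccolo) by -1.91 and -2.57 (SE 0.32). Unc13a, which encodes the priming factor Munc13-1, changed by -1.09 and -1.14 (SE 0.16). The probe sets of Bsn (bassoon, the partner scaffold of piccolo) disagreed. The brightest one was at 6.25, 6.40 and 6.58 after ouabain at 3 days, against 6.48, 6.46 and 6.42, and at 6.52, 6.14 and 6.46 at 7 days, against 6.38, 6.57 and 6.36, and was not called (-0.04 and -0.06, SE 0.12). A second probe set of nearly the same mean was called lower at both days (-1.41 and -1.58, SE 0.18, limma adjusted p = 0.000125 and 5.46e-05), and the third was not called, so Bsn has no settled direction.

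All 5 vesicle endocytosis genes were lower at both days, with medians of -2.51 and -2.64. Dnm1, the neuronal dynamin that cuts vesicles from the membrane, was at 10.66, 8.97 and 9.05 after ouabain at 3 days, against 12.32, 12.35 and 12.44 in controls. At 7 days it was at 9.52, 8.72 and 8.35, against 12.45, 12.24 and 12.05. The highest treated array was 1.66 below the lowest control at 3 days and 2.53 below it at 7 days (-2.81 and -3.38, SE 0.39, limma adjusted p = 0.000202 and 5.16e-05). Sh3gl2 (endophilin A1, which bends the membrane) changed by -2.66 and -3.02 (SE 0.26) and Amph (amphiphysin, which recruits dynamin) by -2.51 and -2.64 (SE 0.29). Snap91 (the clathrin adaptor AP180) changed by -1.88 and -2.10 (SE 0.26), and Synj1 (synaptojanin, the lipid phosphatase that strips the coat) by -1.17 and -1.31 (SE 0.14).

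Close relatives were set against each other as the change of their log2 ratio within an array, ouabain minus control. The 11 pairs were taken up with the results for their genes known, so these values describe the same arrays again. A permutation test was run on them, but it is given no weight for that reason and is not reported. The ratio of Vamp1 to Vamp2 changed by -3.14 at 3 days and -4.01 at 7 days, that of Syt2 to Syt1 by -3.11 and -3.25, and that of Cplx1 to Cplx2 by -2.69 and -3.34. The Syt2 to Syt1 ratio is the least certain of these, because Syt1 varied widely among controls. Its SD in controls was 1.42 at 3 days and 1.54 at 7 days, against 0.21 and 0.28 for Vamp1 to Vamp2 and 0.12 and 0.25 for Cplx1 to Cplx2. Sv2b over Sv2a changed by -1.04 and -1.88, Rab3c over Rab3a by -0.79 and -1.76, and Slc17a7 over Slc17a6 by -0.77 and -0.29. Slc17a7 stood close to the arrays' lower quartile after ouabain (means 4.87 and 4.66), which limits how far this first gene of its pair can be seen to fall. Sncb over Sncg changed by -1.68 at 3 days and -0.04 at 7 days, so this ratio was close to that of controls at the later day. Pairs with Rab3b (Rab3c over Rab3b -2.34 and -3.13, Rab3a over Rab3b -1.55 and -1.37) or Sv2c (Sv2b over Sv2c -1.77 and -2.67, Sv2a over Sv2c -0.73 and -0.80) rest on probe sets with low values, Rab3b close to the arrays' medians and Sv2c below them after ouabain, which limits how far the second gene can be seen to fall.

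The median difference of the 38 genes from the control mean of the day was -1.20, -2.46 and -2.19 in the ouabain-treated arrays at 3 days and -1.79, -2.27 and -2.60 at 7 days, while the 6 control arrays lay between -0.12 and 0.18. Not every gene followed the median. Syt4, Cplx2 and Sncg stood above the control mean in each treated array at 3 days. At that day Syt1, Stx1a, Bsn and Rab3b stood on both sides of it or close to it. Replicate 1 was the treated array nearest to the controls for 32 of the 38 genes at 3 days and for 26 at 7 days. The median SD over the 38 genes was 0.61 in ouabain-treated ears and 0.11 in controls at 3 days, and 0.29 in ouabain-treated ears and 0.20 in controls at 7 days. Without replicate 1 of both ouabain groups the counts of lower genes stayed at 29 and 31.

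**Figure D3:**
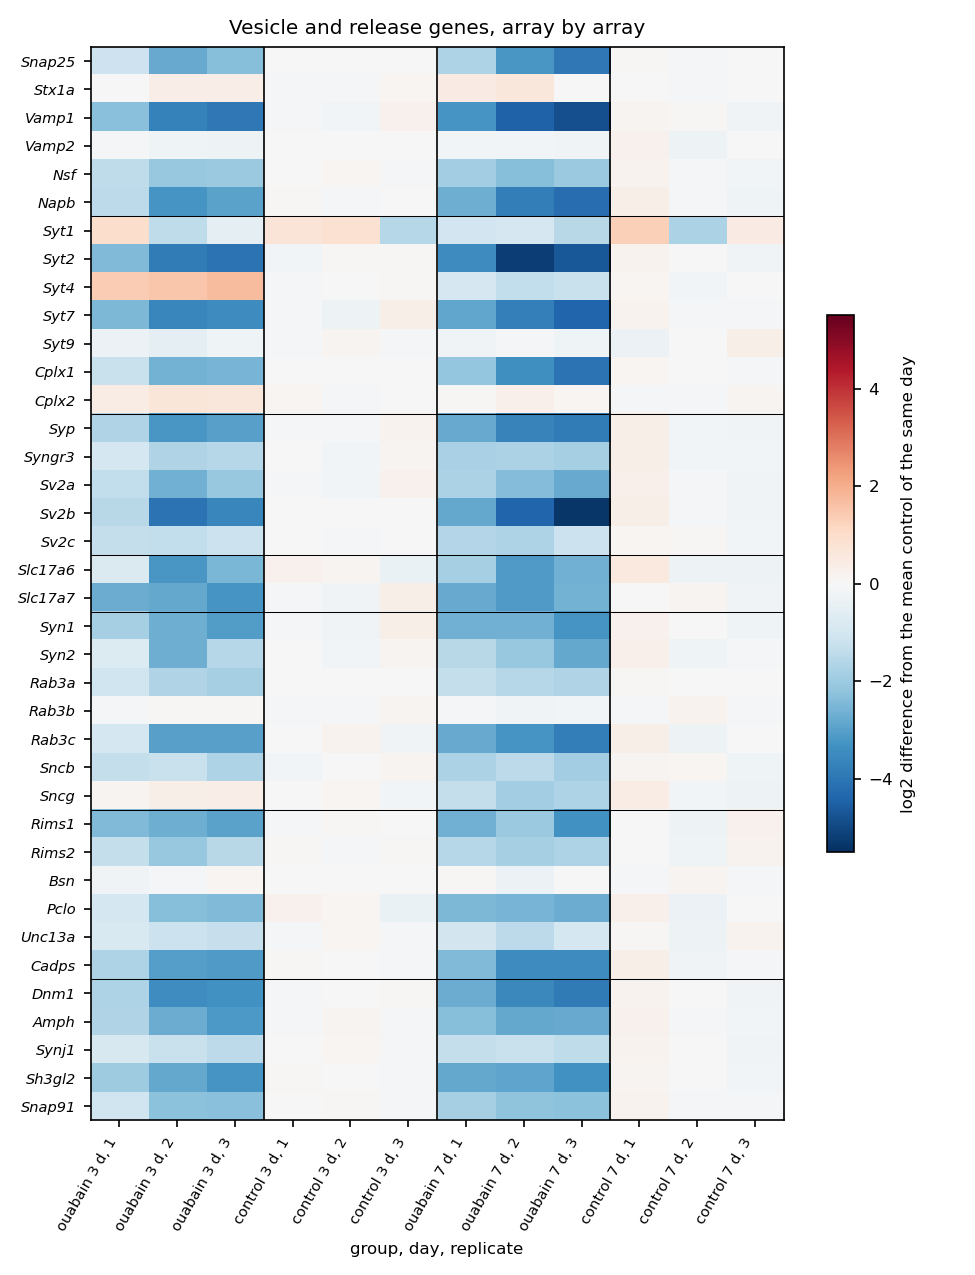
Difference of each of the 38 genes (rows, in the order of their roles) from the mean control of the same day on each array (columns: ouabain, then control, at 3 and at 7 days), as log2 units in colour, blue for lower and red for higher. The first ouabain column of each day is paler than the other two for most genes, and Syt4 is red at 3 days and blue at 7 days. The Syt1 row is mixed in ouabain at 3 days and in the controls of both days, and blue in each ouabain array at 7 days.

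Marker genes of the cells in the tissue moved as follows. All 10 neuronal markers were lower at both days (medians -2.27 and -3.27), and their summed linear level was 7460 to 20476 after ouabain against 50931 to 52663 in controls at 3 days, and 3249 to 10006 against 45554 to 52448 at 7 days. None of 11 hair cell markers was called at either day (medians -0.03 and -0.01), and their summed level was 1929 to 3055 against 2326 to 3150 at 3 days and 2387 to 2911 against 1987 to 2783 at 7 days. Only 5 of the 11 lay above a log2 value of 6 on at least 3 arrays, which limits how far the rest can be seen to fall. Otof was clearly detected, at a mean of 8.60 after ouabain and 9.01 in controls at 3 days, whereas Slc26a5, the defining gene of outer hair cells, lay below the arrays' lower quartile, at 4.02 and 4.03. Of 7 Schwann cell markers, 2 were lower at 3 days, and 3 lower and 1 higher at 7 days, with summed levels of 47283 to 47396 against 58531 to 60850 and of 42673 to 46787 against 56158 to 58609. The macrophage markers were higher in 11 of 11 cases at 3 days and in 10 of 11 at 7 days, and their summed levels were 15262 to 18689 against 4578 to 6067 and 18023 to 19103 against 5295 to 6126. Of 8 markers of central glia, 3 were higher at each day (summed levels 9108 to 11907 against 6228 to 9819, and 12161 to 14506 against 6629 to 10268). Within the treated arrays of a day the neuronal markers were highest in replicate 1, as the release genes were, and the part of any of these cells in the release genes' changes was not tested.

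**Figure D4:**
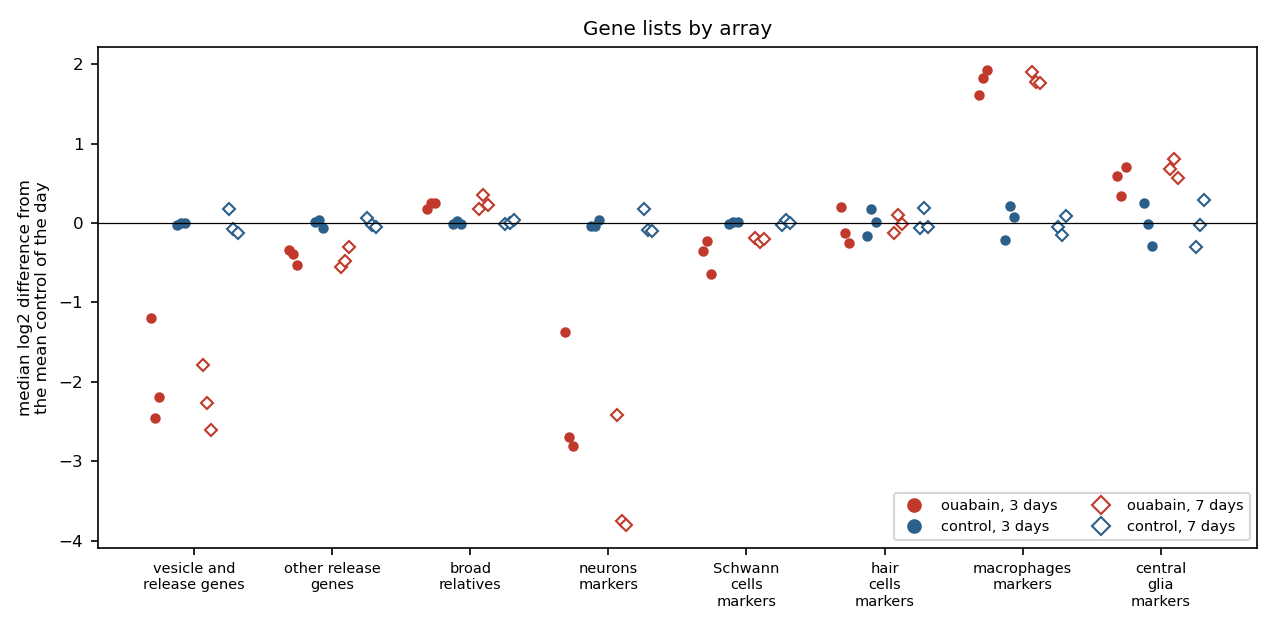
Median log2 difference from the mean control of the day (y axis) of 8 gene lists (x axis) on each array, with ouabain in red and control in blue, filled for 3 days and open for 7 days. The vesicle and release genes and the neuronal markers lie below 0 in all 6 ouabain arrays and are nearest to 0 in replicate 1 at each day, macrophage markers lie between 1.62 and 1.93, and hair cell markers stay within 0.26 of 0.

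Between the days, 32 of the 38 genes had a lower fold change at 7 than at 3 days, against 8870 of all 18193 genes. The median difference of the responses was -0.37, against 0.01 over all genes. Only the responses of Syt4 and Sncg differed by the test, against 0.923% of all genes more negative at 7 days and 0.247% less negative. An unadjusted p under 0.05 was found for 3 of the 38, against 2937 of the 18193. Controls at 7 days differed from controls at 3 days for none of the 38 genes by limma, and 0.0165% of all genes were called. An unadjusted p under 0.05 was found here for 2 of the 38, against 1443 of the 18193. Ouabain-treated ears at 7 days, set against those at 3 days, were called for 3 genes, with Syt4 (-2.58, limma adjusted p = 1.19e-06) and Sncg (-1.73, limma adjusted p = 0.000276) lower and Syt9 higher (0.66, SE 0.14, limma adjusted p = 0.0204), against 4.12% of all genes called either way and 2.26% called lower. Syt9 also stood higher in the 7-day controls than in the 3-day ones, at a mean of 7.72 against 7.24.

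The 38 genes had 93 probe sets, and 27 genes had several. Of the 93, 62 were lower and 3 higher at 3 days, and 64 were lower and none higher at 7 days. Over all probe sets, 6.58% and 6.51% were lower and 5.71% and 6.14% higher. Of the 63 with a mean above 6, 53 were lower at 3 days and 56 at 7 days. Nearly all probe sets that disagreed with the brightest one of their gene were dim, such as the second probe set of Syp with a mean of 5.54, and Bsn and Cplx2 were the genes where bright probe sets disagreed.

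Of 47 further genes of the release machinery listed, 42 were measured, among them Otof, which is also a hair cell marker here. At 3 days 17 were lower, 4 higher and 21 not called, and at 7 days 16 were lower, 1 higher and 25 not called. The medians were -0.40 and -0.47. Over all genes, 8.06% and 8.2% were called lower at the 2 days, and 7.51% and 7.57% higher. The largest decreases were those of Dnm3 (a dynamin of neurons, -2.57 and -2.67), Rims3 (a short RIM form, -2.0 and -2.02), Stxbp5l (tomosyn-2, an inhibitor of SNARE assembly, -1.94 and -2.36) and Apba1 (an adaptor that binds Munc18, -1.71 and -1.64). Higher at 3 days were Syngr1 (a synaptogyrin, 2.10, SE 0.11), Unc13b (Munc13-2, 0.81), Apba2 (0.76) and Erc1 (an active zone protein also found outside neurons, 0.69), and Erc1 alone was still called at 7 days (0.62). Syngr1 was at 10.32, 10.67 and 10.47 after ouabain at 3 days, against 8.30, 8.49 and 8.38 in controls, and at 8.97, 9.03 and 9.30 at 7 days, against 8.54, 8.64 and 8.58. Its groups were apart at both days, while the fold change at 7 days (0.51, limma adjusted p = 0.00457) was under the threshold.

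The 24 relatives listed as broadly expressed serve membrane fusion and uptake and are not confined to neurons, though not each of them acts in most cells. Of these, 7 were higher and 1 lower at 3 days, and 4 higher and 1 lower at 7 days, against 15.6% and 15.8% of all genes called either way. The genes higher at 3 days with the largest changes were Stx3 (a syntaxin of the cell surface, 0.90), Sh3glb1 (an endophilin relative, 0.84), Stx2 (0.76) and Snap23 (the widespread relative of Snap25, 0.74). Snap23 (0.84), Syngr2 (0.82), Rab3d (0.82) and Stx3 (0.70) were higher at 7 days. Napg, the gamma form of the SNARE cofactor, was the gene called lower (-1.0 and -1.3, SE 0.11). The median of the 24 was 0.16 at 3 days and 0.24 at 7 days, against -1.90 and -2.23 for the 38 vesicle and release genes.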

How the data were processed

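Arrays of the modiolus of adult mice (12 arrays, 4 groups of 3) were analysed. The authors made the values with Affymetrix Expression Console by RMA, with MAS5 for detection calls (versions not given in the sources used here). The log2 expression values they deposited, 1 for each probe set on each array, were not normalized again. The RNA input differs between the paper and the sample labels. No raw intensities were used, and the replicate number limits the precision.

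The 64 control probe sets among the 45101 were dropped. A model of 4 group means was fitted by limma 3.58.1 (R 4.3.3, empirical Bayes), p-values were adjusted by Benjamini and Hochberg over 45037 probe sets, and a call needed a fold change above 1.5 together with an adjusted p under 0.05. Symbols came from the platform annotation (34945 probe sets with 1 symbol, 932 with several, 9160 with none), and probe sets with 1 symbol stood for genes. The procedure was tested on simulated data. Promoters came from RefSeq and were searched with Python 3.11.15.

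The genes, their roles and the other lists were chosen with earlier results of these data known. Values of each array are given for the 6 largest changes a day, for genes called higher, for relatives with differing calls and for genes whose responses differed between days, and Snap25 and Bsn were added after their values were seen. Of other lists, up to 4 called genes each way are named. Replicate numbers were not taken as pairs, since neither labels nor paper state it. The alternatives were the methods' t-test, another variance form, a fit by day, a replicate block, other fold thresholds, a filter on low values (log2 of 6 in 3 arrays), 2 other normalizations, robust moderation, array weights, means or medians over probe sets, and each array left out.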

Additional observations from a re-analysis of the deposited data

Results flagged for a closer look

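The response of Syt4 at 7 days minus that at 3 days was -2.71 (SE 0.18, limma adjusted p = 2.96e-05), and all 3 treated arrays lay above the controls at 3 days and below them at 7 days. Sncg had a difference of -1.92 between the days (SE 0.26, limma adjusted p = 0.00498). Outside the 38 genes, Syngr1 had a difference of -1.59 (SE 0.16, limma adjusted p = 0.00068). These 3 genes were picked out because the responses at the 2 days differed by the test of the difference itself.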

How the results depend on the processing

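Of 2923 single-gene values under alternatives for the 38 genes, 2897 kept their side of the threshold, 16 were no longer called and 10 became called. The sign turned in 63, of which 13 were changes between ouabain and control (Syt1, Vamp2, Bsn and Rab3b, none of them called) and the rest were differences between the days that were not called. The count of genes lower after ouabain lay between 18 and 30 at 3 days and between 30 and 32 at 7 days over the alternatives other than the unequal-variance test below, and with each array left out it stayed at 29 and 31. The lowest count at 3 days, 18, came with the methods' t-test and adjusted p, which also gave 11 other release genes lower at 3 days and 3 broad relatives called at 7 days. An unequal-variance t-test with adjusted p, added after seeing the data, gave 2 genes lower and 0 higher at 3 days and 11 lower at 7 days, with 1 and 8 other release genes lower and 0 and 1 broad relatives called. The unequal-variance tests lack the moderation that limma gives 3 arrays a group, but so does the methods' t-test, which gave 18 and 30 lower genes with adjusted p. They also take the spread of treated and control arrays separately, whereas limma and the methods' t-test pool it. The median SD over the 38 genes was 0.61 in ouabain-treated ears and 0.11 in controls at 3 days, and 0.29 and 0.20 at 7 days. Genes higher at 3 days numbered 2 without a fold threshold, with a second quantile normalization, with subtraction of the 75th percentile, with means or medians over probe sets, and without replicate 1 of both ouabain groups (1 to 2 with each array left out, Cplx2 being the gene added). Broad relatives called numbered 13 and 12 without a fold threshold and 1 and 1 with a fold above 2, and 3 at 7 days with means over probe sets. With each array left out, other release genes lower numbered 16 to 18 at 3 days and 15 to 18 at 7 days, and broad relatives called 7 to 8 and 5 to 6. With the replicate block the counts were 29 lower and 1 higher at 3 days, 31 lower and 0 higher at 7 days, 2 with differing responses, 17 and 16 other release genes lower and 8 and 5 broad relatives called, so the block changed none of them, and the deviations of same-numbered arrays correlated by 0.334, 0.0892 and 0.177 at 3 days and 0.277, 0.155 and 0.0189 at 7 days, with not every array correlating best with its own number. No block was fitted for controls at 7 against 3 days. The median over all probe sets was 0.02 at 3 days and 0.03 at 7 days and moved by less than 0.1 under each scaling. Bsn was called lower at both days with medians over probe sets. Where a called value moved by over 1.5 times without 1 array, that array was an ouabain replicate 1, as given for Sv2b, Rab3c, Slc17a6 and Snap25. Values near the arrays' lower quartile bound how large a decrease can appear.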

Other observations

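The array-to-array pattern of Syt1 was shared by other genes. The deviations of each array from its group mean were correlated with those of Syt1 over the 12 arrays and 18192 other genes, as a description chosen after the values were seen, and the arrays share their pools and their normalization. The most similar genes were Unc13c (r = 0.976), Fgf13 (r = 0.966), Tafa2 (r = 0.957), Pcp4 (r = 0.956) and Kcnd3 (r = 0.955). Unc13c encodes Munc13-3, a vesicle priming factor, and was at 7.53, 6.55 and 6.87 after ouabain at 3 days, against 7.93, 7.92 and 6.37 in controls, and at 6.84, 7.24 and 6.70 at 7 days, against 8.39, 6.76 and 8.15. As with Syt1, control replicate 3 was the lowest array of the 3-day controls and control replicate 2 that of the 7-day controls. Tafa2, a secreted protein gene of neurons, was at 4.27 in control replicate 3 at 3 days, against 9.48 and 9.63 in the other two controls, and at 4.59 in control replicate 2 at 7 days, against 10.41 and 7.83.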
